A study of Danio rerio with 12 samples.

Results

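The Delta ligand genes *dla*, *dlb*, *dlc* and *dld* (deltaA, deltaB, deltaC and deltaD) were followed through 3 stages of zebrafish development on 12 Affymetrix Zebrafish Genome arrays. They are 4 of the 8793 genes that the array represents by a probe set of 1 gene symbol. The members were all probe sets annotated to these symbols, which gave 7 of the 15502 probe sets tested: 1 of *dla*, 2 of *dlb*, 3 of *dlc* and 1 with the symbol *dld*. A probe set is a group of short probes on the array that is summarised as 1 signal.

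Total RNA came from pools of 100 whole embryos of the TL strain. Control (WT) embryos were uninjected. The quadruple knockdown (QKD) embryos had received morpholino antisense oligonucleotides (MOs) that block translation of *sox2*, *sox3*, *sox19a* and *sox19b*, the B1 *sox* genes, which encode transcription factors of early ectoderm and neural tissue. WT and QKD embryos were each sampled at 3 stages, with 2 independent samples in each of the 6 groups. The stages are named 30%E and 75%E by the share of the yolk that the spreading cell layer covers (epiboly) and TB for tailbud, when gastrulation ends. Because the controls received no injection, the knockdown and the injection itself cannot be told apart in these arrays. The study also describes QKD embryos as late in epiboly after the shield stage, so that the same stage name can cover embryos of somewhat different progress.

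Delta proteins are transmembrane ligands. A Delta on the surface of a cell binds a Notch receptor on its neighbour, the receptor is cleaved, and its intracellular part enters the nucleus and turns on genes of the Hes and Hey class of transcriptional repressors. In the neural plate this exchange, called lateral inhibition, sets how many cells become neurons, and *dla*, *dlb* and *dld* mark the early neuronal precursors of the zebrafish. In the paraxial mesoderm the same pathway drives and synchronises the segmentation clock that paces the somites, and *dlc* and *dld* are the ligands used there.

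The symbol *dld* needed a check. The probe set listed under it carries Entrez gene 399479, for which the RefSeq table (GRCz12tu) lists no Delta synonym. Entrez gene 30138 has the synonyms dld and sc:d0402, next to sc:d0400 of *dlb*, and it has a probe set of its own under the symbol *dldh*. That probe set is therefore called deltaD below, and the set of Entrez gene 399479 is given beside it as the *dld*-annotated set. The assignment rests on the identifiers, although it was made after the values of both sets had been seen. With deltaD so defined in place of the *dld*-annotated set the Delta genes again have 7 probe sets, and these are counted below.

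The arrays had a median signal of 73.5 to 76.6 and a lower quartile of 20.6 to 24.1, in linear units of the RMA program. The transcripts targeted by the MOs remained on the arrays, and the signal says nothing of the proteins. *sox3* changed by 0.65, 1.56 and 1.48 on the log2 scale at 30%E, 75%E and TB and *sox19b* by 1.77, 1.28 and 1.25, all higher in QKD (adjusted p at most 0.0148). *sox19a* was higher by 0.51 at 75%E and 0.53 at TB, and *sox2* was lower at 30%E (−0.94) and higher at 75%E (2.25) and TB (2.14).

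The Delta genes differed between QKD and WT embryos at different stages and in different directions. At 30%E *dlc* and deltaD were lower in QKD, at 75%E *dlb* was higher, and at TB *dla* and deltaD were lower. Of the 7 probe sets, 3 were called lower and 0 higher at 30%E, where 2.92% of all probe sets were called lower and 5.14% higher. At 75%E 0 were called lower and 1 higher, against 3.90% and 4.49% of all probe sets. At TB 2 were called lower and 0 higher, against 3.21% and 3.15%. A call is an adjusted p below 0.05 in a limma fit over all 12 arrays, with Benjamini-Hochberg adjustment over the 15502 probe sets. At an unadjusted p below 0.05 in the same fit the Delta probe sets were 3 lower and 0 higher at 30%E, 0 and 2 at 75%E, and 4 and 0 at TB. The shares of all probe sets given here and below are of adjusted calls. They are no measure for counts at an unadjusted p of this fit, for which no share was taken. The median change of the 4 genes, each under its brightest probe set, was −0.59 at 30%E, 0.16 at 75%E and −0.67 at TB on the log2 scale. Over all probe sets the medians were −0.025, −0.017 and 0.013. With the replicate number of each stage as a block the calls over all probe sets went from 1249 to 2210 at 30%E, from 1301 to 2622 at 75%E and from 986 to 2109 at TB, while the Delta probe sets called stayed at 3, 1 and 2. Since the arrays hold RNA of whole embryos, fewer cells expressing a gene and less RNA per cell cannot be told apart in any value given here. With 2 against 2 arrays an exact permutation test of a single gene cannot give a p below 0.333. The calls therefore rest on the spread shared by the 6 groups and, through the variance prior of limma, on that of other probe sets. Groups said not to overlap are a description only, as no share of such probe sets was taken.

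**Figure D1:**
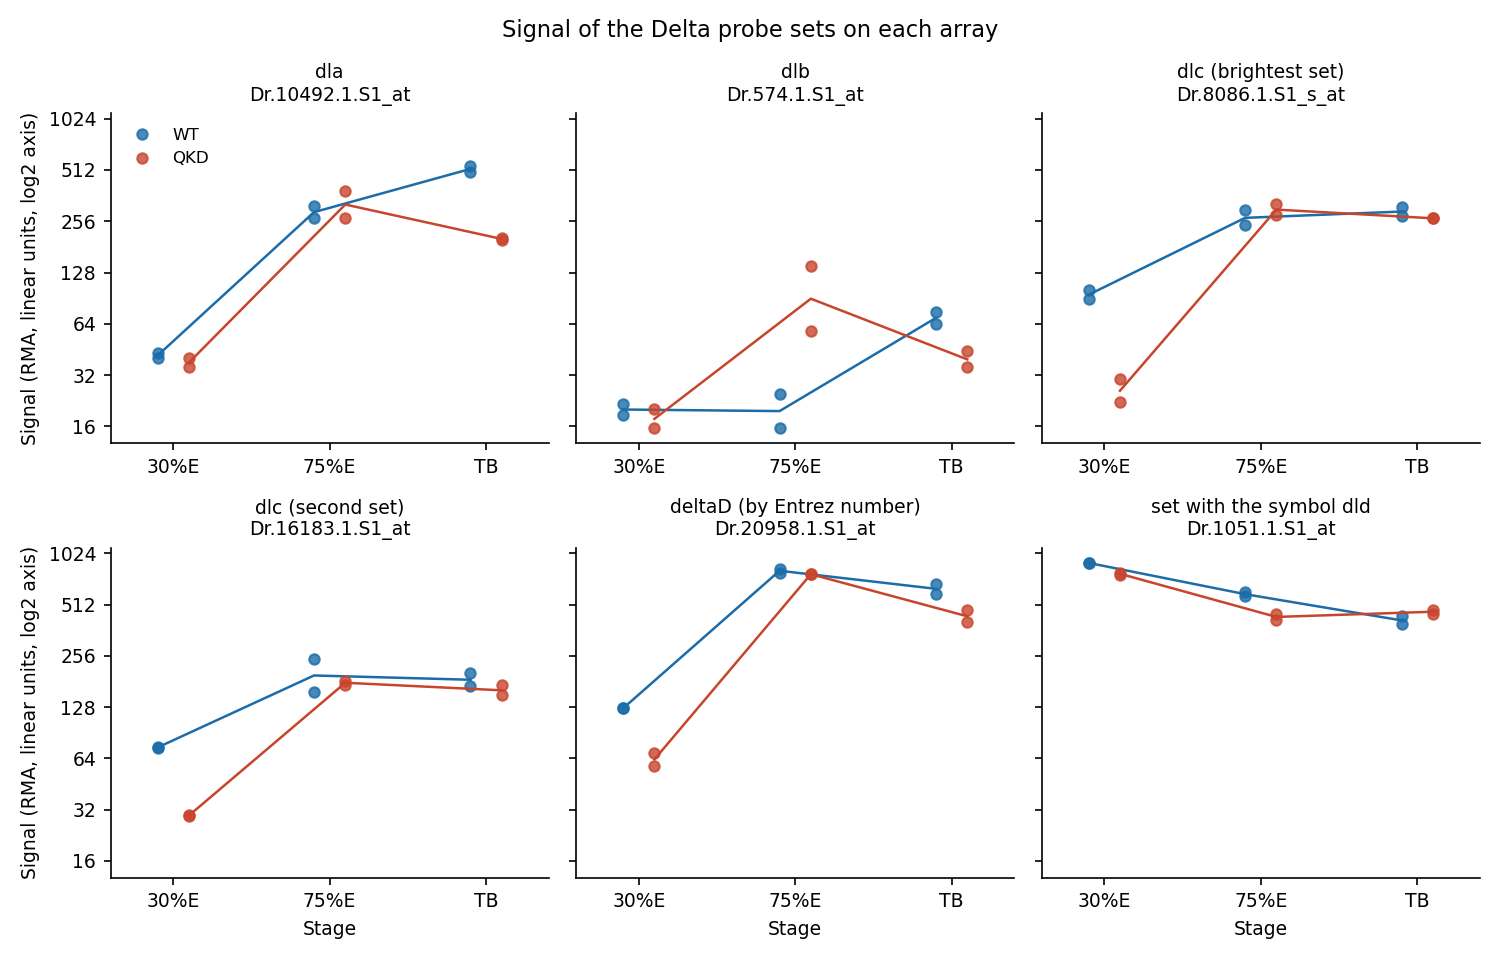
Signal of 6 probe sets (RMA, linear units on a log2 axis) by stage, with a point for each array, blue for WT and orange for QKD, and lines through the geometric means of the 2 arrays of a group. QKD points lie below WT for *dlc* and deltaD at 30%E and for *dla* at TB, and above WT for *dlb* at 75%E (58.1 and 139 against 15.6 and 24.8).

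*dlc*, the ligand of the paraxial mesoderm and its segmentation clock, had the largest Delta difference at 30%E. Its brightest probe set read 89.0 and 101 in WT replicates 1 and 2 at 30%E and 30.2 and 22.2 in the QKD replicates. The QKD arrays lay far below both WT arrays, with means of 26.2 ± 5.71 against 95.1 ± 8.68 (SD, n = 2), and came close to the lower quartile of the arrays without going under it. The difference was −1.87 ± 0.16 (SE) on the log2 scale, a 3.67-fold lower signal in QKD (adjusted p = 3.66e-05).

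The second *dlc* probe set read 74.7 and 73.7 in WT and 29.8 and 29.3 in QKD at 30%E. Its groups were again well apart, with a difference of −1.33 ± 0.17 (adjusted p = 0.000678). The third stayed between 8.57 and 17.7 on all 12 arrays, always under the lower quartile, and changed by 0.017 ± 0.14 at 30%E, so that it says little of *dlc* at this brightness. The brightest set is of a type (suffix s_at) whose probes can match more than 1 transcript.

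The *dlc* difference was not seen at the later stages. At 75%E the brightest set read 297 and 242 in WT and 322 and 279 in QKD, and the groups overlapped (0.16 ± 0.16 on the log2 scale, adjusted p = 0.633). At TB it read 311 and 274 in WT and 267 and 266 in QKD, where the QKD arrays were just below the WT arrays (−0.13 ± 0.16, adjusted p = 0.789). The second set gave −0.14 ± 0.17 at 75%E and −0.21 ± 0.17 at TB, neither past the threshold. The sign at 75%E thus differed between the probe sets, and no direction is given for it.

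deltaD, the ligand shared by neuronal precursors and paraxial mesoderm, was lower in QKD at 30%E and again at TB. At 30%E it read 126 and 126 in WT and 57.5 and 69.3 in QKD. All QKD values were below the WT values, and the difference was −0.99 ± 0.12 on the log2 scale, or 1.99-fold lower (adjusted p = 0.00053). At 75%E it read 786 and 832 in WT and 774 and 770 in QKD, a step of −0.067 ± 0.12 that did not pass the test (adjusted p = 0.832). At TB it read 680 and 590 in WT and 475 and 402 in QKD, without overlap, and the difference was −0.53 ± 0.12, or 1.45-fold lower (adjusted p = 0.026). The call at TB was lost without WT replicate 1 (−0.43, adjusted p = 0.186), without QKD replicate 2 (−0.41, adjusted p = 0.193) and in a fit of the 4 TB arrays alone (adjusted p = 0.0859).

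*dla*, which marks neuronal precursors in zebrafish, was called at TB alone of the 3 stages. At 30%E its signals were 40.5 and 42.9 in WT and 40.2 and 35.7 in QKD, values that lay close together (−0.14 ± 0.16, adjusted p = 0.775). At 75%E it read 267 and 314 in WT and 386 and 267 in QKD, with overlapping groups (0.15 ± 0.16, adjusted p = 0.673). The sign at 75%E turned without QKD replicate 1 (−0.12, adjusted p = 0.755), so no direction is given there.

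At TB *dla* read 499 and 541 in WT and 203 and 200 in QKD. The WT arrays were both more than double any QKD array, and the means were 520 ± 29.7 and 201 ± 1.78 (SD, n = 2). The difference was −1.37 ± 0.16, or 2.58-fold lower in QKD (adjusted p = 0.000341), and leaving out any TB array moved it between −1.43 and −1.31 with the call kept.

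*dlb*, a ligand known in zebrafish from the earliest neuronal precursors, went the other way at 75%E. Its brighter probe set read 15.6 and 24.8 in WT and 139 and 58.1 in QKD. Every QKD array was above every WT array, but the QKD arrays were far apart, with a mean of 98.3 ± 56.9 against 20.2 ± 6.47 (SD, n = 2). The difference was 2.19 ± 0.34 on the log2 scale, or 4.56-fold higher in QKD (adjusted p = 0.00216).

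One WT array at 75%E lay under its lower quartile, so the *dlb* ratio is taken against a signal at the dim end of the array. Leaving out any of the 4 arrays at 75%E gave 1.56 to 2.82 with the call kept. A two-sample test with equal variances on the linear signals of the 4 arrays of the stage gave an unadjusted p of 0.193, and the probe set drops out when those under the 40th percentile of mean signal are removed. The second *dlb* set was under the lower quartile on all 12 arrays (11.8 to 18.3) and changed by 0.30 ± 0.11 at 75%E (adjusted p = 0.138).

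At the other stages *dlb* did not pass the test. At 30%E it read 18.6 and 21.7 in WT and 20.1 and 15.6 in QKD, overlapping values of which 3 of 4 were under the lower quartile (−0.18 ± 0.34, adjusted p = 0.878). At TB it read 75.2 and 64 in WT and 44.1 and 35.5 in QKD, with all QKD values below WT. That difference was −0.81 ± 0.34 (adjusted p = 0.225), and in a fit of the 4 TB arrays alone the adjusted p was 0.0358.

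**Figure D2:**
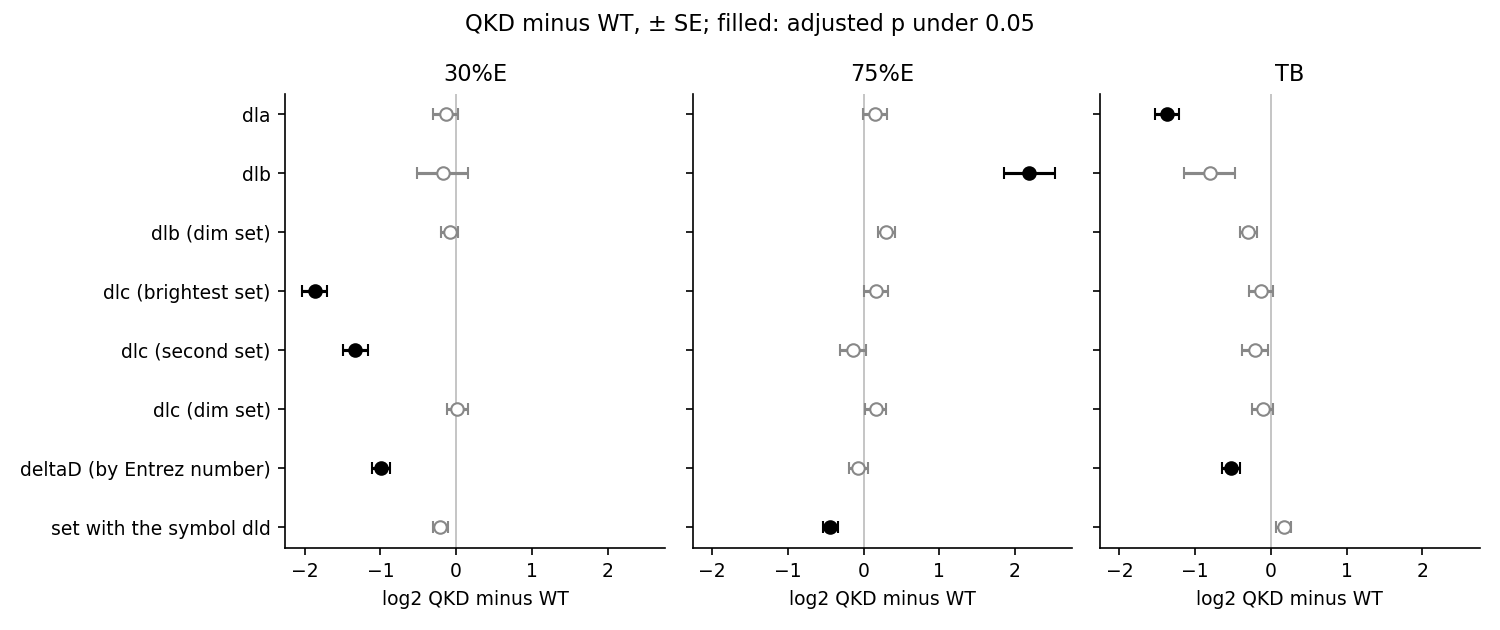
Change between QKD and WT on the log2 scale (horizontal axis, mean ± SE from the limma fit of 12 arrays) for the 8 probe sets named in the text at each stage, filled where the adjusted p is below 0.05. The filled points are *dlc* (−1.87 and −1.33) and deltaD (−0.99) at 30%E, *dlb* (2.19) and the *dld*-annotated set (−0.44) at 75%E, and *dla* (−1.37) and deltaD (−0.53) at TB.

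The *dld*-annotated set behaved unlike deltaD. It read 895 and 903 in WT and 764 and 789 in QKD at 30%E, 574 and 605 against 452 and 415 at 75%E, and 436 and 392 against 478 and 452 at TB. The groups did not overlap at any stage, with QKD below WT at the earlier stages and above it at TB. The differences were −0.21 ± 0.099 (adjusted p = 0.288), −0.44 ± 0.099 (adjusted p = 0.0178) and 0.17 ± 0.099 (adjusted p = 0.437). Under the annotation as it stands the Delta probe sets called would therefore be 2 lower at 30%E, 1 lower and 1 higher at 75%E, and 1 lower at TB.

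The stage course of WT embryos set the paralogues apart as well. From 30%E to 75%E *dla* rose by 2.80 ± 0.16, deltaD by 2.69 ± 0.12 and *dlc* by 1.50 ± 0.16 on the log2 scale, while *dlb* gave −0.029 ± 0.34 (adjusted p = 0.949). From 75%E to TB *dla* rose further by 0.84 ± 0.16 (adjusted p = 0.00222) and *dlb* by 1.82 ± 0.34 (adjusted p = 0.00209). Over that interval *dlc* gave 0.13 ± 0.16 and deltaD −0.35 ± 0.12, which did not pass the test (adjusted p = 0.62 and 0.0548). Of the 4 genes *dlb* alone was not called in the first interval.

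In WT, 5 of 7 Delta probe sets were called higher and 0 lower from 30%E to 75%E, when 30.2% of all probe sets were called higher and 27.0% lower. From 75%E to TB 3 were called higher and 0 lower, against 14.1% and 13.7%. The order of signal over stages was 30%E, 75%E, TB for *dla*. For deltaD it was 30%E, TB, 75%E, with the last 2 not separated by the test. For *dlc* 75%E and TB were not separated, and for *dlb* 30%E and 75%E were not.

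In QKD embryos all 4 genes rose from 30%E to 75%E, and 3 of them fell from 75%E to TB. The rise was 3.08 ± 0.16 for *dla*, 2.34 ± 0.34 for *dlb*, 3.53 ± 0.16 for *dlc* and 3.61 ± 0.12 for deltaD. In the second interval *dla* fell by 0.67 (adjusted p = 0.0105), *dlb* by 1.18 (adjusted p = 0.0273) and deltaD by 0.82 (adjusted p = 0.000879), and *dlc* gave −0.17 ± 0.16. Of the 7 probe sets 7 were called higher and 0 lower in the rise, against 30.9% and 29.4% of all probe sets. In the second interval 0 were called higher and 3 lower, against 12.1% and 10.2%. The falls of *dla* and *dlb* were not called when QKD TB replicate 1 (adjusted p = 0.0555 and 0.0706), QKD TB replicate 2 (0.052 and 0.141) or QKD 75%E replicate 1 (0.0893 and 0.212) was left out.

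*dla* rose from 75%E to TB in WT and fell in QKD, and *dlb* rose in QKD by 75%E and in WT by TB. *dlc* and deltaD were lower in QKD at 30%E and their differences were not called at 75%E. These genes also rose in WT over the same interval, and QKD embryos are described as late in epiboly at later stages. The part of a difference in progress in the values at 30%E, 75%E or TB was not tested. That holds also for the opposite steps of *dla* from 75%E to TB.

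Whether the QKD difference itself depended on stage was tested by contrasts of the same fit, in which the 3 pairs of stages share arrays. From 30%E to 75%E the difference changed by 2.37 ± 0.48 for *dlb* (adjusted p = 0.018), 2.04 ± 0.22 for *dlc* (adjusted p = 0.000578) and 0.93 ± 0.18 for deltaD (adjusted p = 0.0137), and by 0.29 ± 0.22 for *dla* (adjusted p = 0.607). From 75%E to TB it changed by −1.51 ± 0.22 for *dla* (adjusted p = 0.0111) and −3.00 ± 0.48 for *dlb* (adjusted p = 0.0158). deltaD gave −0.47 ± 0.18 there (adjusted p = 0.375) and *dlc* −0.30 ± 0.22 (adjusted p = 0.777). Between 30%E and TB it changed by 1.74 ± 0.22 for *dlc* (adjusted p = 0.0016) and −1.23 ± 0.22 for *dla* (adjusted p = 0.00976), and *dlb* and deltaD gave −0.63 ± 0.48 and 0.46 ± 0.18, neither called. In these 3 contrasts 4, 2 and 3 of the 7 Delta probe sets were called, against 4.56%, 0.677% and 5.73% of all probe sets in either direction.

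Leaving out single arrays cost some of these calls. The *dlb* change from 30%E to 75%E was not called without WT 30%E replicate 1 (adjusted p = 0.0517), WT 30%E replicate 2 (0.0652) or QKD 30%E replicate 2 (0.0805). Its change from 75%E to TB was not called without WT 75%E replicate 1 (0.0513), WT TB replicate 1 (0.0847) or QKD TB replicate 2 (0.0672). The deltaD change from 30%E to 75%E lost its call with either WT 30%E replicate 1 (0.0523) or QKD 75%E replicate 1 (0.0515) left out. The 4 called changes of *dla* and *dlc* kept their calls throughout these omissions.

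The paralogues were also set against each other within arrays, as the QKD minus WT change of one gene minus that of another. At 30%E *dlc* lay below *dla* by 1.74 ± 0.22 in this measure and below *dlb* by 1.69 ± 0.42. At 75%E *dlb* lay above deltaD by 2.26 ± 0.44 and above *dlc* by 2.02 ± 0.42. At TB *dla* gave −1.23 ± 0.22 against *dlc* and −0.83 ± 0.23 against deltaD. These single-stage values carry no test, and their SE is pooled over the 6 groups. Averaged over the 3 stages the 6 pairs ran from −0.85 for *dla* minus *dlb* to 1.01 for *dlb* minus *dlc*. In the exact permutation test, two-sided with WT and QKD labels exchanged within stages (216 arrangements, smallest possible p 0.00926), the p for *dla* and *dlb* was 0.0463, or 0.13 adjusted over the 6 pairs. *dlb* against *dlc* and *dlb* against deltaD each gave 0.0648, also 0.13 adjusted, and the 3 pairs of *dla*, *dlc* and deltaD gave adjusted p = 0.769. With labels exchanged only between the same-numbered arrays of a stage, an alternative chosen after seeing the data (64 arrangements, smallest possible p 0.0312), the exact p was 0.0938 for *dla* and *dlb* and 0.156 for *dlb* against *dlc* and against deltaD, each 0.312 adjusted, and the other 3 pairs gave adjusted p = 0.875. No pair passed the threshold under either exchange in this average, in which differences of opposite sign at different stages cancel.

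**Figure D3:**
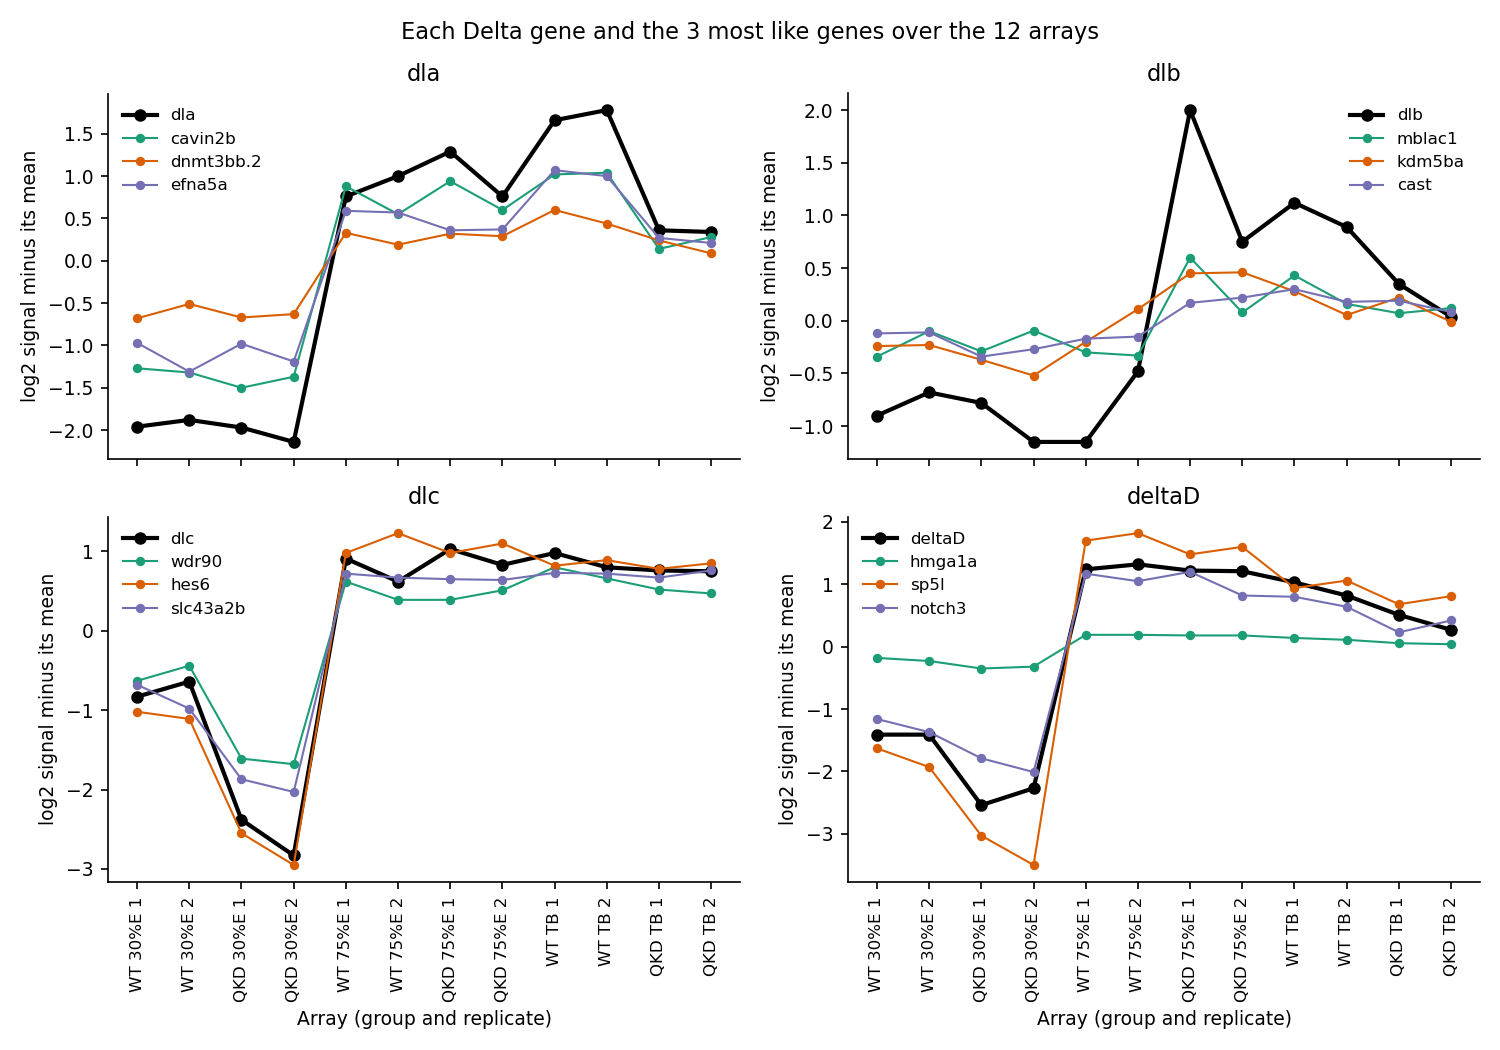
Log2 signal minus its mean over the 12 arrays (vertical axis) for each Delta gene (black) and the 3 genes most like it (colours), with the arrays along the horizontal axis by group and replicate and lines only to guide the eye. The genes were chosen for their likeness on these same arrays, so that the low values of *dlc* and its 3 genes on the QKD arrays at 30%E follow from the choice, and *dlb* stands highest on QKD 75%E replicate 1.

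The genes whose signal most resembled each Delta gene were found by Pearson's r over the 12 arrays, given as a description, since arrays of a group share their course. A shared QKD change follows from that choice, so the changes of these genes are given beside it with no test. deltaD was most like *hmga1a* (r = 0.998), a chromatin protein gene, *sp5l* (0.99), a transcription factor gene downstream of Wnt signalling, and *notch3* (0.99), which encodes a Notch receptor. *dlc* was most like *wdr90* (0.99), *hes6* (0.987), which encodes a partner of the Hes and Hey repressors in the clock, and *slc43a2b* (0.985). The QKD minus WT difference at 30%E was −1.69 ± 0.14 for *hes6*, −1.11 ± 0.11 for *wdr90*, −1.12 ± 0.11 for *slc43a2b*, −1.48 ± 0.15 for *sp5l* and −0.13 ± 0.087 for *hmga1a*.

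*dla* was most like *cavin2b* (r = 0.989), *dnmt3bb.2* (0.983), a DNA methyltransferase gene, and *efna5a* (0.983), an ephrin ligand gene. Their differences at TB were −0.82 ± 0.14, −0.35 ± 0.11 and −0.80 ± 0.12. *dlb* had no close match, with *mblac1* at 0.915, *kdm5ba*, a histone demethylase gene, at 0.873 and *cast* at 0.866. The differences of these 3 at 75%E were 0.65 ± 0.17, 0.50 ± 0.13 and 0.35 ± 0.094. Among the Delta genes r was 0.95 for deltaD and *dlc*, 0.946 for deltaD and *dla* and 0.614 for deltaD and *dlb*. The *dld*-annotated set gave −0.811 with deltaD and −0.908 with *dla*, and was most like *phgdh* (0.981), a serine synthesis gene.

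Of the Notch receptors all 4 were measured, and 1 was called. The shares of all probe sets called lower and higher were 2.92% and 5.14% at 30%E, 3.90% and 4.49% at 75%E, and 3.21% and 3.15% at TB. *notch3* was lower in QKD at 30%E by −0.64 ± 0.15 (adjusted p = 0.0197), with mean signals of 43.8 against 68.1 (n = 2), and gave −0.095 ± 0.15 at 75%E and −0.39 ± 0.15 at TB. *notch1a* gave −0.21, −0.30 and −0.16 at the 3 stages, *notch1b* −0.21, −0.033 and 0.032, and *notch2* 0.31, 0.008 and −0.041, none of them past the threshold. The other ligands of the pathway, the Jagged genes *jag1a*, *jag1b* and *jag2b*, gave 0 calls at any stage in the limma fit, with 3 of 5 listed genes measured. At the 3 stages 0, 2 and 0 of them had an unadjusted p below 0.05 in that fit, a limit to which the shares above do not apply.

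Among genes that process ligand or receptor, 10 of 15 were measured and 1 was called, at TB, where 3.21% of all probe sets were called lower. *lfng*, a glycosyltransferase that tunes the response of Notch to its ligands, was lower in QKD at TB by −0.87 ± 0.12 (adjusted p = 0.00103), with means of 926 against 1688. *mib1*, the ubiquitin ligase that Delta needs for signalling, gave −0.21, −0.33 and −0.35 and no call. Of the intracellular modulators and nuclear partners 4 of 12 were measured. In their brightest sets 2 were lower at 75%E and 1 at TB, against 3.90% and 3.21% of all probe sets called lower. *nrarpb*, which encodes a feedback inhibitor of Notch, was lower at 75%E by −1.29 ± 0.18 (adjusted p = 0.00126). Of its 3 other probe sets 2 were not called there (−0.29 and −0.03) and 1 was. That set was also lower at TB (−1.62 ± 0.25, adjusted p = 0.00259), where the brightest was not called. Another set of its paralogue *nrarpa* was lower at 75%E (−0.51 ± 0.13, adjusted p = 0.0314). *dtx2*, a ubiquitin ligase gene, was lower by −0.51 ± 0.11 at 75%E and −0.57 ± 0.11 at TB.

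Of the Hes and Hey class 15 of 22 genes were measured. At 30%E 4 were lower and 0 higher, where 2.92% and 5.14% of all probe sets were called, at 75%E 4 lower and 1 higher, against 3.90% and 4.49%, and at TB 6 lower and 0 higher, against 3.21% and 3.15%. The list medians were −0.12, −0.16 and −0.15, against −0.025, −0.017 and 0.013 over all probe sets. They include dim sets under the lower quartile that can show little change. Examples are *heyl* (group means of 7.06 to 8.86) and the brightest set of *her4.5* (8.81 to 10.3). The neuronal precursor and paraxial mesoderm lists below hold such dim sets too, among them *neurod1* and, at 30%E, *myod1*. At 30%E, the stage at which *dlc* and deltaD were lower, *her7* was lower by −3.34 ± 0.17 (adjusted p = 1.41e-06) and *her1* by −2.25 ± 0.15 (adjusted p = 7.45e-06). Both encode repressors of the segmentation clock. *her7* had a mean of 184 in WT and 17.8 in QKD, and *her1* 80.8 and 16.8. Both QKD means were under the lower quartile, where the size of a difference is not firm. At 75%E *her7* gave −0.034 and *her1* 0.32, and at TB 0.11 and 0.32, none called.

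*her3*, a repressor gene of the early neural plate, was lower at all 3 stages, by −1.43 ± 0.17, −4.97 ± 0.17 and −4.91 ± 0.17, with a WT mean of 910 at TB against 30.3 in QKD. *her3* is in each count of lower genes above, although work that the study cites reports it as repressed by Notch. Its QKD means at 30%E and 75%E, 18.1 and 16.5, were under the lower quartile as well. Its second probe set was not called (0.027, −0.24 and 0.0019). At TB, where *dla* was lower, *her9* was lower by −1.12 ± 0.17, *her2* by −0.96 ± 0.14 and *her15.2* by −0.61 ± 0.13 (adjusted p = 0.00242, 0.00179 and 0.0172), and these 3 were singled out after their values were seen. *her9* and *her2* were already lower at 75%E in the limma fit (−1.24 ± 0.17 and −0.58 ± 0.14, adjusted p = 0.00108 and 0.0264), where *dla* was not called. *her15.2* was not called at 75%E (−0.30 ± 0.13, adjusted p = 0.21). *her6* (−0.49 ± 0.10, adjusted p = 0.0153) and *her8a* (−0.54 ± 0.13, adjusted p = 0.031) were also lower at TB in the limma fit. The second set of *her8a* was not called (−0.086). At 75%E *her6* was the gene called higher (0.39 ± 0.10, adjusted p = 0.0421). The brightest sets of *her4.2* and *her4.5* were not called at TB (adjusted p = 0.0875 and 0.939), while another set of each was (−0.76 ± 0.11 and −1.14 ± 0.15). The *her4* copies are near-identical genes, and the array may not separate them. Whether the Hes and Hey changes at any stage are linked to those of the Delta genes was not tested.

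**Figure D4:**
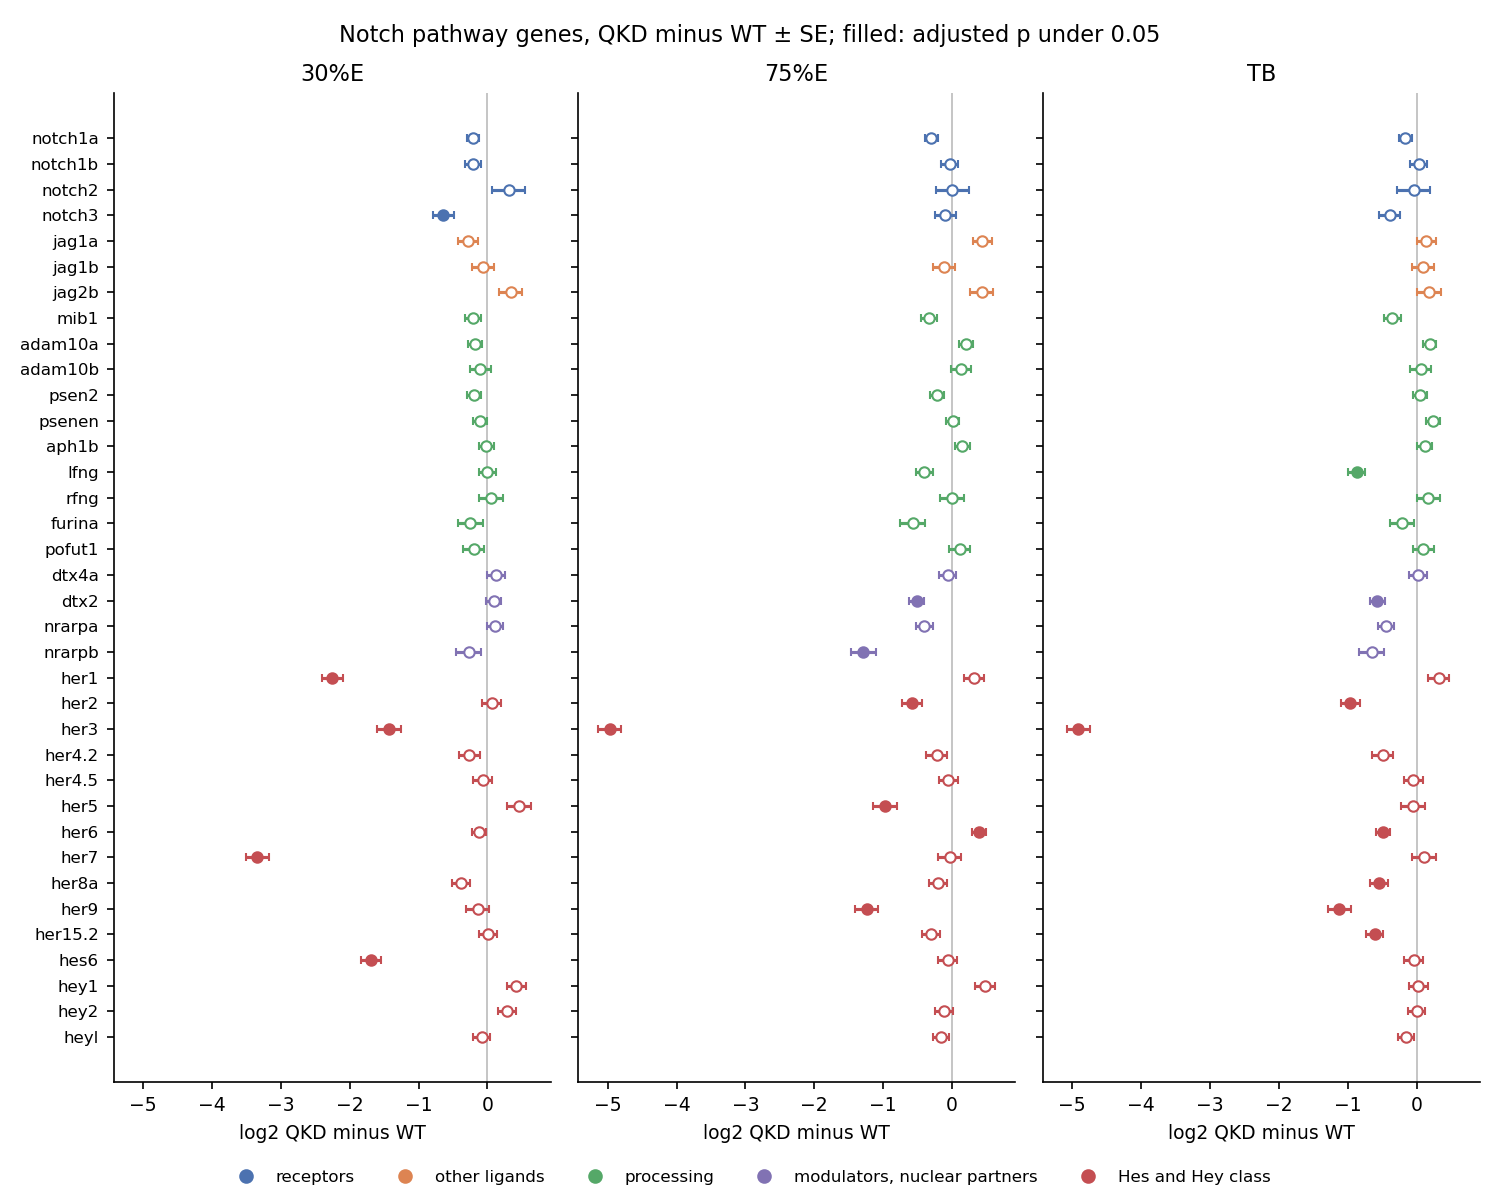
Change between QKD and WT on the log2 scale (horizontal axis, mean ± SE from the limma fit of 12 arrays) for the 36 measured Notch pathway genes at each stage, coloured by list and filled where the adjusted p is below 0.05. The leftmost filled points, *her7* (−3.34) at 30%E and *her3* (−4.97 and −4.91) at 75%E and TB, have dim QKD signals (means of 16.5 to 30.3), and the receptors hold 1 filled point, *notch3* (−0.64) at 30%E.

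The tissues that express Delta genes were read from lists of marker genes. Of the neuronal precursor list 17 of 20 were measured, with 0 lower and 1 higher at 30%E, 1 lower and 2 higher at 75%E, and 3 lower and 2 higher at TB (medians −0.06, 0.017 and −0.057). The shares of all probe sets called lower and higher were 2.92% and 5.14% at 30%E, 3.90% and 4.49% at 75%E, and 3.21% and 3.15% at TB. *neurog1*, the proneural gene of primary neurons, was lower at 75%E by −1.39 ± 0.20 and at TB by −3.74 ± 0.20 (adjusted p = 1.13e-06), with TB means of 29.7 in QKD against 385. *ascl1a*, another proneural gene, was higher at 75%E by 3.54 ± 0.41 and at TB by 1.55 ± 0.41. *stmn2a*, a gene of neuronal microtubules, was higher at 30%E by 2.97 ± 0.13. The summed signal of the list was higher in QKD without overlap at 30%E (1023 to 1091 against 832 to 857 in WT) and at 75%E (1188 to 1701 against 989 to 1085). *stmn2a* alone had means of 324 in QKD and 41.3 in WT at 30%E, and *ascl1a* alone 496 and 36 at 75%E. Each of these higher sums thus leans on 1 gene and is not a rise of the list as a whole. At TB the sum was 1419 to 1626 in WT and 1182 to 1453 in QKD, which overlapped.

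Of the paraxial mesoderm list 17 of 23 were measured, with 4 lower and 0 higher at 30%E, 0 lower and 2 higher at 75%E, and 1 lower and 2 higher at TB (medians −0.19, 0.14 and 0.29), beside the same shares of all probe sets. *fgf8a*, the signal of the embryonic margin, was lower at 30%E by −1.43 ± 0.10 and at TB by −0.69 ± 0.10. *tbx16*, a mesodermal T-box gene, was lower at 30%E by −0.59 ± 0.15, though not in its other probe set (−0.25 ± 0.96). *noto*, a notochord gene that the list also held, was higher at TB by 0.89 ± 0.11. The summed signal of the list at 30%E was 5455 to 6051 in QKD and 7252 to 7925 in WT, without overlap, and *tbx16* alone had means of 2861 and 4316. The sum was higher in QKD without overlap at 75%E (13317 to 13892 against 12075 to 12626) and at TB (13099 to 13246 against 11163 to 11620). At 75%E *msgn1* alone had means of 4275 in QKD and 3563 in WT, and at TB *noto* had 1180 and 636. These sums thus lean in part on single genes. The part of this list in the lower *dlc* and deltaD signals at 30%E was not tested.

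Some markers of other cell types were called at the same stages. Of all probe sets 2.92% were called lower and 5.14% higher at 30%E, 3.90% and 4.49% at 75%E, and 3.21% and 3.15% at TB. In lists as short as these, 1 call is not read as a change of the cell type. Epidermal markers, all 5 measured, were lower in QKD for 2 genes at 30%E, 4 at 75%E and 5 at TB, and their summed signal at TB was 1354 to 1745 against 3295 to 3599 in WT. The largest changes were those of *tfap2c* (−2.71 ± 0.22 at 30%E, its second probe set −0.16), *tp63* (−2.17 ± 0.13 at TB) and *foxi1* (−2.15 ± 0.15 at TB). The surface epithelium list had 1 of 5 measured genes lower at 30%E, with summed signals of 6115 to 8394 in QKD and 9091 to 10584 in WT, and 0 calls later. At an unadjusted p below 0.05 in the limma fit 4 of the 5 were lower at 30%E, and the list median there was −0.41. The shares above do not apply to counts at an unadjusted p. The yolk syncytial layer list had 1 of 3 lower at 30%E and 1 of 3 higher at 75%E, and the notochord list 1 of 4 lower at 30%E, 1 of 4 higher at 75%E and 1 of 4 higher at TB. These notochord calls were *tbxta* (−0.51 at 30%E and 0.39 at 75%E) and *noto* (0.89 at TB). Both genes are also in the counts and sums of the paraxial mesoderm list, so the 2 lists share these calls. The endoderm list had 1 of 3 lower and 1 of 3 higher at 30%E. The germ cell list had 0 of 3 called by limma at any stage in the brightest sets (1 higher at 30%E at an unadjusted p below 0.05), and another set of *dnd1* was higher at 30%E (0.71 ± 0.16, adjusted p = 0.0182). The blood list, of which *gata1a* alone was measured, had 0 calls and 0 at an unadjusted p below 0.05. The part of these cell types in the Delta values was not tested.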

How the data were processed

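The deposited intensity values of 12 arrays, which the authors made with the RMA program (version not given in the sources used here), were on a linear scale. RMA corrects background, normalizes arrays to one distribution and summarises probe sets, so that small differences between arrays are damped. Values were put on the log2 scale. The 115 control probe sets of 15617 were removed, leaving 15502. In the platform annotation 10795 of these carry 1 gene symbol, 135 several and 4572 none.

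Groups came from the sample labels. limma 3.58.1 in R 4.3.3 (lmFit, eBayes) was fitted with a mean per group, giving 6 residual and 5.11 prior degrees of freedom, with Benjamini-Hochberg adjustment over all probe sets and a limit of 0.05. Signals are given with 3 significant digits, and a gene with several probe sets stands under the brightest. The study's own rule was a ratio of averaged signals over 2. Precision is limited by 2 arrays per group.

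Same-numbered WT and QKD arrays of a stage deviated together (r = 0.615, 0.443 and 0.488). Between stages r was 0.104 to 0.183 for 30%E with 75%E and −0.0835 to 0.105 otherwise. The main fit and the main permutation test did not use the pairing within stages. Only alternatives to them paired samples by the replicate number. On simulated data for QKD against WT at 30%E, 91 of 100 probe sets changed by 1 and 99 of 100 changed by 2 on the log2 scale were called, with 6 false calls. At 75%E the counts were 84, 97 and 7, and at TB 90, 99 and 20. The simulated arrays had independent noise, without the shared deviations above, and only those probe sets differed between WT and QKD. These counts therefore describe the simulation and may differ on the real arrays.

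The members and gene lists were chosen with earlier results of these data known. Named were the Delta genes, the 4 receptors, the 3 largest called changes of each list and, by Pearson's r among probe sets at or over the 40th percentile of mean signal, the 3 most like genes. Of 58 listed Notch pathway genes 36 were measured, *dtx1* under its present symbol *dtx4a*. Alternatives covered scaling, filtering, the variance prior, the samples fitted, blocks, call rules, a pseudocount of 16, other probe sets and each array left out. No sequences are shown, since no sequence table was used here.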

Additional observations from a re-analysis of the deposited data

Results flagged for a closer look

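The QKD minus WT difference itself changed between stages for each of the 4 Delta genes, by a limma contrast of the 2 differences. In either direction 4.56% of all probe sets were called from 30%E to 75%E, 0.677% from 75%E to TB and 5.73% between 30%E and TB. From 30%E to 75%E it changed by 2.37 for *dlb*, 2.04 for *dlc* and 0.93 for deltaD on the log2 scale. From 75%E to TB it changed by −1.51 for *dla* and −3.00 for *dlb*. Between 30%E and TB it changed by −1.23 for *dla* and 1.74 for *dlc*. The values of *dlb* rest on QKD arrays at 75%E that read 139 and 58.1, and the others on groups whose arrays lay closer together. The *dlb* changes were not called with 16 added to the signal (1.67 and −2.19) or in its second set (0.39 and −0.60). Calls of *dlb* and deltaD were also lost with some single arrays left out.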

How the results depend on the processing

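The limits are those of 2 arrays a group and of dim probe sets: *dlb* at 30%E and in WT at 75%E, and the weakest sets of *dlb* and *dlc* on every array. The lower *dla* at TB and the lower *dlc* at 30%E were called under every alternative but the equal-variance test on linear signals after Benjamini-Hochberg adjustment (−1.37 and −1.86) and, for *dlc*, its dimmest probe set (0.017). The replicate block changed no call of a Delta gene. The equal-variance test with that adjustment, which cannot use the spread of other groups, called 0 of all 15502 probe sets at 30%E, 75%E or TB. Its 0 Delta calls (*dlb* 2.28, deltaD −0.99 at 30%E and −0.53 at TB) are thus shared by every probe set. Unadjusted, 0 Delta probe sets were called at 75%E (*dlb* 2.28), against 1788 of all probe sets, and deltaD at TB (−0.53) was not called.

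A 2-fold limit, alone or with the adjusted p, took deltaD from the calls at 30%E (−0.99) and TB (−0.53) and left 1 Delta probe set at TB, 1 from WT 75%E to TB and 1 from QKD 75%E to TB. Over all probe sets the limit with the adjusted p left 258 of 986 calls at TB. It left 894 of 4313 from WT 75%E to TB and 626 of 3449 from QKD 75%E to TB. At an adjusted p below 0.01 deltaD at TB (−0.53) was not called, and the counts were 1 at TB, 1 from QKD 75%E to TB, and 1 and 0 for the changes of the QKD difference to 75%E and on to TB. With 16 added to the signal the Delta counts for the changes of the QKD difference to 75%E and on to TB were 2 and 1, against 817 and 125 of all probe sets. Without dim probe sets 0 Delta sets were called at 75%E, 4 from QKD 30%E to 75%E and 1 for the change on to TB. Fewer sets were then tested, and 1208, 7107 and 51 of all 9301 were called. The 4 arrays of TB alone called *dlb* (−0.81) and not deltaD (−0.53).

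Signs turned in small values. *dlb* from WT 30%E to 75%E gave 0.0051 by the ratio of means, 0.0068 by the mean of its sets and 0.042 in its second set, which gave 0.30 for QKD at 75%E, not called. *dlc* gave −0.14 in its second set at 75%E, −0.0022, −0.086 and −0.046 from WT 75%E to TB by the mean, the second and the third set, and −0.12 in the third for the change from 30%E to TB. The pairs *dla* and *dlc* (−0.068, mean of sets) and *dlc* and deltaD (0.017 with 16 added, 0.15 by the mean of sets) turned as well. The cause was not tested.

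With single arrays left out the ranges were −0.12 to 0.41 for *dla* at 75%E, −0.36 to 0.0031 for *dlb* at 30%E, −0.65 to −0.41 for deltaD at TB, −0.36 to 0.30 for *dlb* from WT 30%E to 75%E and −0.023 to 0.27 for *dlc* from WT 75%E to TB. The pair averages ran from −0.0077 to 0.17 for *dla* and deltaD and from −0.20 to 0.037 for *dlc* and deltaD. Calls over all probe sets also moved with the array left out. Delta probe sets called were 1 to 2 at TB, 1 to 5 from QKD 75%E to TB, and 1 to 4 and 1 to 2 for the changes of the QKD difference to 75%E and on to TB.

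The *dld*-annotated set in place of deltaD, an alternative chosen after seeing the data, gave −0.21, −0.44 and 0.17 at the 3 stages, with 2 Delta probe sets called at 75%E and 1 at TB. Its stage steps were −0.61 in WT and −0.84 and 0.10 in QKD, its changes of the QKD difference −0.23 and 0.61, and its pair with *dla* −0.29.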
